A study of Mus musculus with 6 samples.

Results

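Solute carriers are the largest group of membrane transport proteins in mammals. They move amino acids, sugars, ions, metals, vitamins and metabolites across the plasma membrane and the membranes of organelles, and symbols group them into numbered families. The members described here are the 189 genes, of 12656 in the table of expression values, whose symbol is Slc, a family number, a letter and a member number; 191 symbols match, and the 2 transporters Slc7a11 and Slc19a1 were left out by the same rule. The choice used symbols only and no measured value. The rule also takes in 3 genes that are named after a carrier without being one, Slc7a6os, Slc4a1ap and Slc2a4rg-ps.

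The cells are the mouse line 4T1, which the labels class as triple-negative breast cancer. The 3 LP-184 libraries come from cells given LP-184, a chemotherapeutic compound, for 48 h, and the 3 DMSO libraries from cells given DMSO, the solvent; the labels give no dose, no time for DMSO and no word on whether replicates were separate cultures. The p-values below therefore rest on how far these libraries differ from each other, a spread that may be technical. Reads over the genes of the table numbered 18952393 to 22471753 in the LP-184 libraries and 18864368 to 21585323 in the DMSO libraries. The epithelial markers Epcam, Krt8, Krt18 and Cdh1 were all present and summed to 2318 CPM with LP-184 and 2579 CPM with DMSO. They did not move together: on the log2 scale Epcam (0.36) and Cdh1 (0.38) were higher with LP-184, and Krt8 (-0.47) and Krt18 (-0.34) were lower. CPM is the reads of a gene per 1e+06 of the scaled size of its library. None of the 4 leukocyte or 4 endothelial markers was in the table, and of the 4 fibroblast markers only Pdgfra was, at 9.19 CPM with LP-184 and 6.85 CPM with DMSO. In bulk RNA, fewer cells of a type and less RNA per cell cannot be told apart.

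Amino acid carriers of the plasma membrane often work as exchangers or as pairs with a glycoprotein chain, and many are targets of the transcription factor Atf4. Zinc enters the cytosol through the ZIP family (Slc39a) and leaves it through the ZnT family (Slc30a), and the zinc sensor Mtf1 acts through metal response elements in promoters such as that of Slc30a1. The Slc25a family sits in the inner mitochondrial membrane and exchanges nucleotides, phosphate, carboxylates, amino acids, cofactors and iron with the cytosol.

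Of the 189 members, 178 reached the level for testing (log2 CPM at or above 0 in 3 or more libraries). Of these 178, 139 were called by limma (adjusted p under 0.05), 83 higher and 56 lower with LP-184. The background was nearly as high: 78.3% of the 11931 genes tested were called, 38.3% higher and 40.0% lower, so the share of members called (78.1%) stood at the level of all genes. The median log2 fold change of the members was 0.14, beside -0.01 over all genes tested. Rises of 2-fold or more numbered 17 (9.55% of the members tested) and falls of 2-fold or more 14 (7.87%), against 8.08% and 12.6% of all genes tested. With median centring or quantile scaling, the members' rises of this size numbered 26 and the falls 12. All genes tested shifted too. Their rises of this size went from 964 to 1158 with median centring and 1202 with quantile scaling. Their falls went from 1502 to 1350 and 1316. The LP-184 and DMSO libraries did not overlap in 148 members, 83.1% of those tested, and in 79.1% of all genes tested. Both counts include genes that reached the level for testing through the libraries of a single group, which by that level could not overlap. Among the members, these include Slc41a2, Slc22a29, Slc24a3 and Slc4a4 (DMSO only) and Slc23a3, Slc17a6 and Slc16a8 (LP-184 only). The sum over all members lay between 12919 and 13078 CPM in the LP-184 libraries and between 11611 and 11761 CPM in the DMSO libraries, so the groups did not overlap. In the authors' deposited table, 145 of the 189 members had an adjusted p under 0.05, and these included 137 of the 139 called here; every one of the 139 had the same direction in the authors' deposited table.

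**Figure D1:**
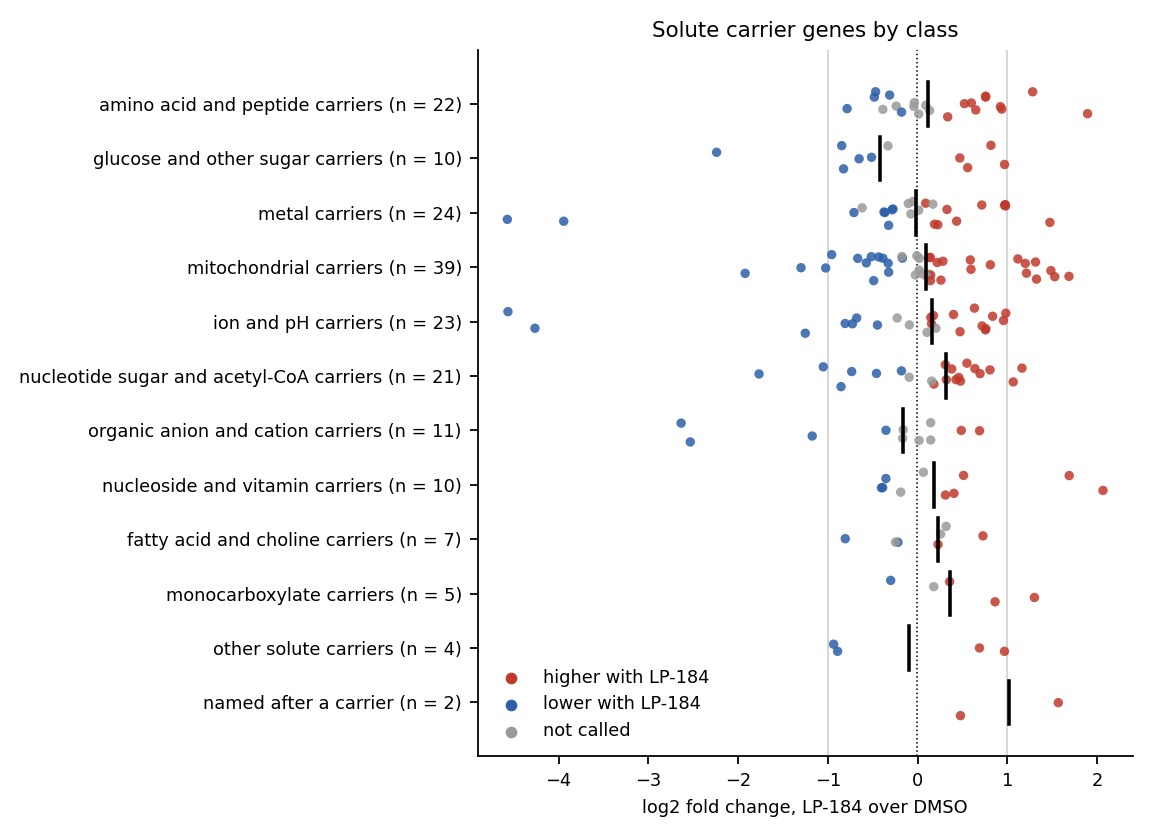
Log2 fold change of each tested solute carrier gene (LP-184 over DMSO, x axis) by class of cargo (y axis). Each point is 1 gene, black bars are class medians, the dotted line is the median of all genes tested and grey lines mark a 2-fold difference. Each class from amino acid to other solute carriers holds rises and falls, and the farthest falls, at -4.57 and -4.56, are a metal carrier and an ion carrier.

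Several carriers of neutral amino acids at the plasma membrane rose, while others were not called or fell. Slc7a5, the light chain of the large neutral amino acid exchanger LAT1, had 293, 302 and 308 CPM in the LP-184 libraries and 164, 188 and 183 CPM in the DMSO libraries. Slc3a2, the glycoprotein heavy chain (CD98) that brings Slc7a5 to the cell surface, had 287, 280 and 291 CPM with LP-184 and 171, 169 and 167 CPM with DMSO. For both chains every LP-184 library was above every DMSO library, and both rose by 0.76 ± 0.03 (SE) on the log2 scale, with adjusted p-values from limma of 2.0e-20 for Slc7a5 and 3.5e-23 for Slc3a2. Per kb of exon the 2 chains stood at 81.2 and 81.1 CPM with LP-184 and at 48.1 and 47.9 CPM with DMSO. The ratio of Slc7a5 to Slc3a2 CPM was 1.02 to 1.08 in the LP-184 libraries and 0.961 to 1.11 in the DMSO libraries, which overlap. Slc7a6, another light chain that pairs with Slc3a2 and exchanges cationic for neutral amino acids, rose by 0.65 ± 0.03 (SE), and the large neutral amino acid carriers outside this pair, Slc43a2 and Slc16a10, stood at -0.39 (not called; called at -0.55 without LP-184 replicate 1) and -0.47 (limma, adjusted p = 0.047). The Slc16a10 call was lost without LP-184 replicate 1 or 2 or DMSO replicate 1 or 3 (-0.39 to -0.45), with either rescaling of the libraries (median centring -0.38, quantile -0.23), and with the replicate number as a block (limma, adjusted p = 0.053).

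The sodium-coupled neutral amino acid carriers Slc1a4 and Slc1a5 also rose. Slc1a4, which carries serine and alanine, had 32.0, 35.0 and 29.3 CPM with LP-184 and 13.3, 12.6 and 13.4 CPM with DMSO. Slc1a5, the glutamine exchanger ASCT2, had 171, 166 and 175 CPM with LP-184 and 89.1, 90.4 and 87.9 CPM with DMSO. The groups were well apart in both, at 1.28 ± 0.08 and 0.94 ± 0.03 (SE) on the log2 scale, with adjusted p-values of 5.4e-16 and 4.1e-23 by limma. The glycine carrier Slc6a9 rose by 0.92 ± 0.17, at 5.65 to 7.18 CPM with LP-184 and 3.40 to 3.48 CPM with DMSO; 27.8% of its exon bases lie over Ccdc24 on the other strand, and the sources used here do not say whether reads were counted by strand.

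Of the 8 amino acid carriers listed as Atf4 targets, 7 were tested and 6 rose, beside 10 of the 22 amino acid carriers tested and 38.3% of all genes tested. The list's median was 0.76 on the log2 scale. The list was chosen with earlier results of these data known, and a part of Atf4 in these rises was not tested. The exception was Slc7a1, the main carrier of arginine and lysine, with 114, 114 and 111 CPM under LP-184 and 125, 128 and 131 CPM under DMSO, a fall of 0.18 on the log2 scale without overlap (limma, adjusted p = 1.8e-05). Slc38a2, the SNAT2 carrier of small neutral amino acids and the most abundant of the class, rose by 0.33 ± 0.03. With the dependence on gene span removed (described further on), Slc7a1 stood at 0.35 and Slc38a2 at 0.01. Its relative Slc38a1 had 93.0, 96.5 and 91.4 CPM with LP-184 and 94.2, 95.3 and 100.2 CPM with DMSO, overlapping groups that were not called (limma, adjusted p = 0.31), and the taurine carrier Slc6a6 likewise had 161, 159 and 163 CPM with LP-184 and 159, 162 and 157 CPM with DMSO. Atf4 itself rose by 0.56 on the log2 scale, and Sesn2, a leucine-binding regulator of mTORC1 and another Atf4 target, by 1.87. The arginine sensor Castor1 rose by 1.18, and Nedd4l, a ubiquitin ligase that removes carriers and channels from the membrane, fell by 2.04.

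Carriers on lysosomes went both ways. Slc38a7, a lysosomal glutamine carrier, and Slc15a4, which exports histidine and peptides from lysosomes, rose by 0.60 and 0.52 on the log2 scale. Slc38a9, the lysosomal arginine sensor upstream of mTORC1, fell by 0.79, and the proton-coupled amino acid carrier Slc36a4 by 0.31 (limma, adjusted p = 0.028). That call was lost without LP-184 replicate 1 or 3 or DMSO replicate 3 (-0.18 to -0.31), with median centring (-0.22) and with quantile scaling (-0.06). Over the 22 amino acid carriers tested, 10 rose, 5 fell and 7 were not called, with a median of 0.11; with each library centred on its median gene, the split was 11 higher and 3 lower, and with the span trend removed 14 higher and 2 lower. Their summed level was 1928 ± 20.1 CPM with LP-184 and 1450 ± 18.4 CPM with DMSO (SD, n = 3 each). The largest rise, 1.89 for the vesicular glutamate carrier Slc17a6, rests on 80 reads over the LP-184 libraries and 17 over the DMSO libraries.

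**Figure D2:**
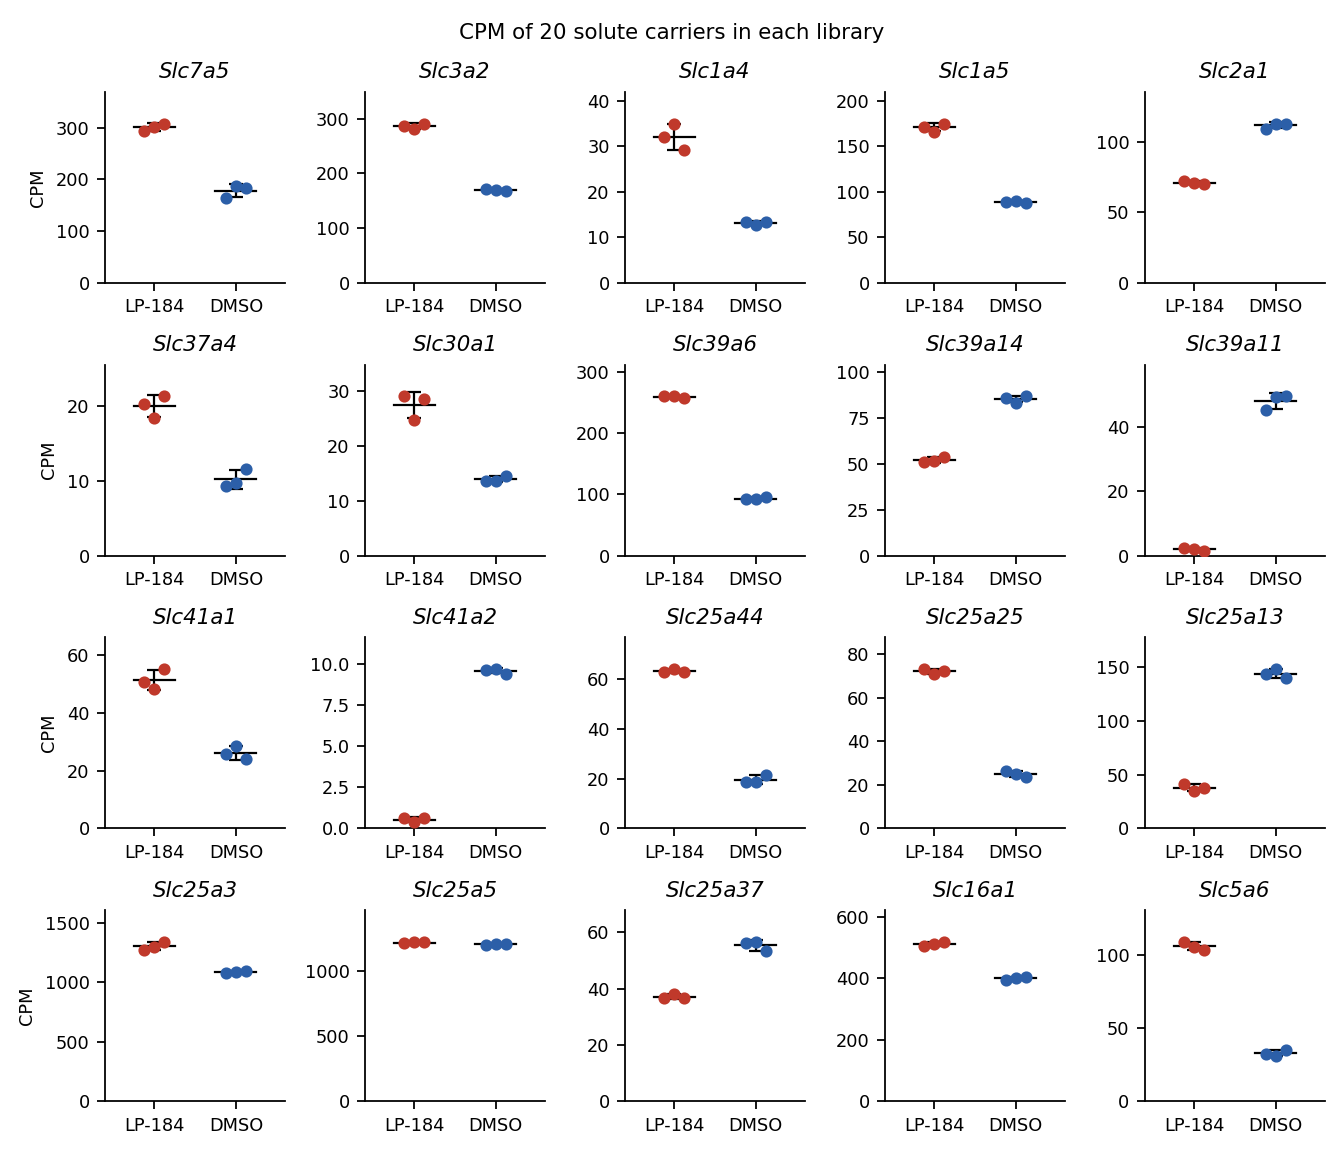
CPM of 20 solute carriers in each library, with LP-184 on the left and DMSO on the right of each panel; points are libraries, bars the mean and SD of 3. In none of the 20 panels do the groups overlap; in Slc25a5, which was not called, they stand at 1214 to 1223 CPM with LP-184 and 1203 to 1206 CPM with DMSO.

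RNA of the main glucose importer of the plasma membrane fell, while RNA of the glucose 6-phosphate carrier of the endoplasmic reticulum rose. Slc2a1 (GLUT1), the basal glucose importer, had 71.9, 70.9 and 70.1 CPM with LP-184 and 109, 113 and 113 CPM with DMSO. All LP-184 libraries were below all DMSO libraries, a log2 difference of -0.65 ± 0.04 (SE) with an adjusted p of 3.8e-17 by limma. Slc37a4, which brings glucose 6-phosphate into the endoplasmic reticulum, had 20.2, 18.4 and 21.3 CPM with LP-184 and 9.28, 9.69 and 11.6 CPM with DMSO, a rise of 0.97 ± 0.10 without overlap. Txnip, an arrestin-like protein that lowers GLUT1 at the cell surface, rose by 2.05 on the log2 scale, to 50.6 CPM with LP-184 against 12.1 CPM with DMSO.

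Of 10 sugar carriers tested, 4 rose and 5 fell, with a median of -0.42 (2 higher and 5 lower with the span trend removed). The falls besides Slc2a1 were Slc5a3, the sodium and myo-inositol cotransporter (-0.83), Slc45a4 (-0.85), Slc37a3 of the sugar-phosphate family (-0.51) and the urate carrier Slc2a9 (-2.24, at 0.734 to 1.58 CPM with LP-184 and 5.30 to 6.01 CPM with DMSO). The rises besides Slc37a4 were Slc45a3 (0.56), the sugar carrier Slc50a1 (0.47) and the insulin-regulated glucose importer Slc2a4 (0.82, at 1.15 to 1.49 CPM with LP-184 and 0.321 to 1.13 CPM with DMSO). The Slc2a4 call was lost without LP-184 replicate 1 or 2 (0.73 and 0.82) and without DMSO replicate 3 (0.35). The class summed to 232 ± 5.75 CPM with LP-184 and 326 ± 2.50 CPM with DMSO (SD, n = 3 each). Lactate leaves or enters the cell through Slc16a1 (MCT1), which had 506, 513 and 519 CPM with LP-184 and 396, 400 and 406 CPM with DMSO, a rise of 0.36 ± 0.02 without overlap (limma, adjusted p = 1.6e-16). Bsg, the chaperone chain that Slc16a1 needs at the membrane, rose by 0.76. Slc16a8 rose by 1.30, on 75 reads with LP-184 and 25 with DMSO over the libraries of each group.

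Metal carriers held several clear rises beside 2 falls of more than 2-fold. Slc39a6 (ZIP6), a zinc importer of the plasma membrane known as LIV-1 in human breast cancer cells, had 260, 260 and 257 CPM with LP-184 and 92.0, 91.7 and 96.0 CPM with DMSO. Slc39a14 (ZIP14), which imports zinc, iron and manganese, had 50.9, 51.5 and 53.8 CPM with LP-184 and 85.6, 83.2 and 86.7 CPM with DMSO. Slc30a1 (ZnT1), the zinc exporter of the plasma membrane, had 29.0, 24.6 and 28.5 CPM with LP-184 and 13.6, 13.6 and 14.6 CPM with DMSO. No group overlapped in these 3 genes: Slc39a6 and Slc30a1 rose, by 1.47 ± 0.03 and 0.97 ± 0.09, and Slc39a14 fell, by 0.71 (limma, adjusted p = 8.2e-30, 2.0e-12 and 1.9e-16). Slc39a4, the zinc importer of the intestinal epithelium, and Slc39a9 rose by 0.98 and 0.71 on the log2 scale. Slc39a1 (ZIP1), the metal carrier highest per kb of exon at 63.5 CPM per kb with LP-184 and 59.7 CPM per kb with DMSO, rose by 0.09 (limma, adjusted p = 0.021), a call lost without LP-184 replicate 1 (0.07) or DMSO replicate 1 (0.05).

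The zinc exporters as a list did not follow Slc30a1. Slc30a4, which loads zinc into vesicles and was the most abundant metal carrier with DMSO, had 209, 200.3 and 213 CPM with LP-184 and 243, 253 and 263 CPM with DMSO. Of 6 tested, Slc30a4 (-0.28), Slc30a6 (-0.32) and Slc30a7 (-0.37) fell, carriers that load zinc into vesicles and the secretory pathway, and Slc30a5 and Slc30a9 were not called; the median was -0.18. Of 11 zinc importers, 4 rose and 3 fell (Slc39a3 by 0.36, besides Slc39a14 and Slc39a11), with a median of 0.01. Slc39a11 (ZIP11), a zinc importer at chr11:113244853-113650079 (GRCm38, minus strand, 405 kb), had 2.23, 2.16 and 1.47 CPM with LP-184 and 45.3, 49.2 and 49.4 CPM with DMSO. Its mean CPM was 24.6-fold lower with LP-184, a log2 fold change of -4.57 ± 0.13 (SE) with an adjusted p of 5.8e-26 by limma. The magnesium carriers Slc41a1 and Slc41a2 split: Slc41a1, a sodium and magnesium exchanger, had 50.6, 48.0 and 55.0 CPM with LP-184 and 25.6, 28.5 and 23.9 CPM with DMSO. Slc41a2, at chr10:83230848-83337882 (minus strand, 107 kb), had 0.613, 0.383 and 0.629 CPM with LP-184 and 9.65, 9.69 and 9.42 CPM with DMSO. The first rose by 0.98 ± 0.07 and the second fell by 3.94 on the log2 scale, in both cases without overlap. Slc41a2 reached the level for testing through its DMSO libraries alone, so its lack of overlap was set by that level.

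The iron and copper carriers changed by less. All 7 tested were called, 5 higher and 2 lower, with a median of 0.22. Of all genes tested, 78.3% were called, so a list this short with every member called does not stand out. The iron importer Slc11a2 (DMT1) rose by 0.33, the exporter Slc40a1 (ferroportin) by 0.43 (limma, adjusted p = 0.042), the copper importer Slc31a1 (CTR1) by 0.22 and the heme carrier Slc48a1 by 0.19. The mitochondrial iron importers split, with Slc25a28 (mitoferrin 2) higher by 0.59 and Slc25a37 (mitoferrin 1) at 36.6, 38.2 and 36.6 CPM with LP-184 and 56.1, 56.5 and 53.2 CPM with DMSO, a fall of 0.57 without overlap. Slc31a2, a copper carrier of endosomes, fell by 0.27 (limma, adjusted p = 0.032). The Slc40a1 call was lost without LP-184 replicate 1 or 2 or DMSO replicate 2 or 3 (0.36 to 0.40), and the Slc31a2 call without LP-184 replicate 3 or any 1 DMSO library (-0.24 to -0.28), with median centring (-0.19) and with quantile scaling (-0.02). Among partners outside the family, the transferrin receptor Tfrc rose by 0.31 and the ferritin light chain Ftl1 by 0.74. The copper chaperone Ccs rose by 0.50, and the metallothioneins Mt1 and Mt2 by 0.15 and 0.91. Steap3 (0.32), Atox1 (0.40) and Aco1 (0.30) also rose. Atp7a (-0.47), Ireb2 (-0.26) and the ferritin heavy chain Fth1 (-0.04) fell, and Mtf1 was not called. With median centring Fth1 stood at 0.05, and with the span trend removed Atp7a stood at 0.34. Over the 24 metal carriers tested, 10 rose and 8 fell, with a median of -0.02 (9 higher and 11 lower with the span trend removed), and their sum was 1417 ± 9.14 CPM with LP-184 and 1299 ± 12.7 CPM with DMSO (SD, n = 3 each).

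The promoters of 4 metal carriers are shown because they carry the short core of the metal response element in genes that rose and in genes that fell. Each is the 250 bases before a RefSeq start site (GRCm38.p6, gene strand, 5′ to 3′), and capitals mark the match to TGCACNC or TGCGCNC, searched on both strands; here each match reads on the opposite strand. The windows are chr1:191906531-191906780 (plus) for Slc30a1, chr1:131827762-131828011 (plus) for Slc41a1, chr11:113650093-113650342 (minus) for Slc39a11 and chr10:83337818-83338067 (minus) for Slc41a2.
Slc30a1: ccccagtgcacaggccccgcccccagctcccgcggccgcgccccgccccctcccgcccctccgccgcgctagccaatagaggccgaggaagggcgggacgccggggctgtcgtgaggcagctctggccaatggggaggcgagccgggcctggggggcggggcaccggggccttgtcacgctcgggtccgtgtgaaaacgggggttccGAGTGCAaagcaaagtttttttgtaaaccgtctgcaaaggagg
Slc41a1: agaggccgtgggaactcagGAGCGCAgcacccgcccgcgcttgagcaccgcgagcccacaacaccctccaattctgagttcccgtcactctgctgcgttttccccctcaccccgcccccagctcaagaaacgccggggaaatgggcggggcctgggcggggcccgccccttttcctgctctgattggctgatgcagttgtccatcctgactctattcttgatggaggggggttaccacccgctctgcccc
Slc39a11: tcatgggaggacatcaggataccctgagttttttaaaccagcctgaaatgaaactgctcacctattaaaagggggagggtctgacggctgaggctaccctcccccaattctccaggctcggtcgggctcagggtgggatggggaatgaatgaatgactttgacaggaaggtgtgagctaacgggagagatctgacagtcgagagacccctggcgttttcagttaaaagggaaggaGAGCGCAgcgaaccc
Slc41a2: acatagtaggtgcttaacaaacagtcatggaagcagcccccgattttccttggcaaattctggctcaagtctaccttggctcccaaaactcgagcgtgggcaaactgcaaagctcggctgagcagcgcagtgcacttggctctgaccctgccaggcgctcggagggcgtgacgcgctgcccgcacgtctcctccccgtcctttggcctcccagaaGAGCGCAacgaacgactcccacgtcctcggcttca
The match begins 43 bases before the start site in Slc30a1, 231 in Slc41a1, 15 in Slc39a11 and 35 in Slc41a2. Of 18 metal carriers with a promoter in the RefSeq table, 9 hold at least 1 match, as do 46 of 135 tested members (34.1%) and 34.8% of 8854 tested genes. The Atf4 element written as TGATGNAA was found in none of the 5 listed Atf4-target carriers with a promoter in the table, in 4 of 135 tested members and in 2.20% of the tested genes. At that share, 5 genes are too few to tell the list from other genes. The search covered only the 250 bases before a start site, so elements elsewhere in a gene would be missed.

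The 3 most abundant mitochondrial carriers differed by 0.26 or less on the log2 scale, and larger changes in both directions were found among the others. Slc25a5 and Slc25a4, which exchange ADP and ATP, and Slc25a3, the phosphate carrier, held 67.7% to 68.7% of the reads of this family in the LP-184 libraries and 65.8% to 66.2% in the DMSO libraries. Slc25a3 had 1274, 1297 and 1340 CPM with LP-184 and 1082, 1088 and 1095 CPM with DMSO, a rise of 0.26 ± 0.02. Slc25a4 rose by 0.15 ± 0.02, and Slc25a5 was not called, at 0.02 ± 0.02 on the log2 scale (limma, adjusted p = 0.37; called, at 0.10, with median centring or quantile scaling). With the trend of gene length removed, Slc25a3 and Slc25a4 stood at -0.12 and -0.17. Per kb of exon, these 3 were also the highest of all 189 members in both groups, led by Slc25a5 at 740 CPM per kb with LP-184 and 732 CPM per kb with DMSO. Slc25a4 and Slc25a5 are close paralogs with processed copies in the genome, and the sources used here do not say how reads shared by copies were counted.

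The largest rises in this family were Slc25a44, Slc25a25 and Slc25a45. Slc25a44, which imports branched-chain amino acids into mitochondria, had 62.7, 63.9 and 62.7 CPM with LP-184 and 18.5, 18.7 and 21.6 CPM with DMSO. Slc25a25, a calcium-regulated carrier of ATP-magnesium and phosphate, had 73.0, 70.8 and 72.3 CPM with LP-184 and 26.3, 24.9 and 23.6 CPM with DMSO. Both groups lay far apart in each gene, with log2 fold changes of 1.69 ± 0.06 and 1.53 ± 0.06 (limma, adjusted p = 1.2e-22 and 4.5e-23). Slc25a45 rose by 1.48, at 9.90 to 12.5 CPM with LP-184 and 3.65 to 4.07 CPM with DMSO. Slc25a42, the coenzyme A importer, rose by 1.32. Slc25a22, a glutamate carrier, rose by 1.20 and Slc25a39, the importer of glutathione, by 0.59, to 340 CPM with LP-184 against 226 CPM with DMSO.

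Both aspartate and glutamate exchangers of the malate-aspartate shuttle fell. Slc25a13 (citrin), at chr6:6041218-6217173 (minus strand, 176 kb), had 41.7, 34.8 and 37.4 CPM with LP-184 and 144, 148 and 140 CPM with DMSO. Slc25a12 (aralar) had 37.4, 35.5 and 33.9 CPM with LP-184 and 72.7, 74.5 and 70.1 CPM with DMSO. Neither gene's groups overlapped, and the log2 fold changes were -1.92 ± 0.05 and -1.02 ± 0.05 (limma, adjusted p = 1.8e-27 and 4.6e-19). Both stayed lower with the span trend removed, at -0.34 and -0.22. Slc25a11, the oxoglutarate and malate exchanger of the same shuttle, fell by 0.43, whereas the citrate carrier Slc25a1 and the dicarboxylate carrier Slc25a10 rose by 0.13 and 0.14. Slc25a26, the importer of S-adenosylmethionine, fell by 1.30, and Slc25a24, the other abundant ATP-magnesium and phosphate carrier, fell by 0.96 while its relatives Slc25a23 and Slc25a25 rose.

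Of 39 mitochondrial carriers tested, 18 rose and 13 fell, 8 of the rises and 3 of the falls by 2-fold or more, with a median of 0.10. With the trend of fold change with gene span removed, the split turned to 13 higher and 21 lower and the median to -0.15. Among mitochondrial transport genes outside the family, 1 of 12 rose and 7 fell; the pore of the calcium uniporter Mcu fell by 1.72, the regulator Micu2 by 0.95, and the sideroflexin Sfxn5 by 1.19. With the span trend removed, Mcu stood at -0.19, Micu2 at -0.30 and Sfxn5 at -0.14, the last no longer called (limma, adjusted p = 0.48). The class summed to 5589 ± 68.0 CPM with LP-184 and 5242 ± 7.16 CPM with DMSO (SD, n = 3 each).

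Vitamin and nucleoside carriers held the largest rise among the tested members. Slc23a3, a member of the ascorbate carrier family, rose by 2.07, on 125 reads with LP-184 and 23 with DMSO. Slc5a6, the sodium-dependent carrier of biotin and pantothenate, had 109, 105 and 103 CPM with LP-184 and 32.5, 30.9 and 34.9 CPM with DMSO, a rise of 1.69 ± 0.05 without overlap (limma, adjusted p = 7.1e-26). The nucleoside carrier Slc29a1 (ENT1) rose by 0.51, while the riboflavin carrier Slc52a2 and the ascorbate carrier Slc23a2 fell by 0.40 and 0.39.

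Carriers of nucleotide sugars feed glycosylation in the Golgi. They were classed by symbol together with acetyl-CoA carriers, and of the 21 tested in this joint class 13 rose and 6 fell. The class includes the acetyl-CoA carrier Slc33a1 (-0.73), so these counts are not of nucleotide sugar carriers alone. The GDP-fucose carrier Slc35c1 rose by 1.07 and Slc35e3 by 1.16. The UDP-N-acetylglucosamine carrier Slc35a3 had 95.4, 89.4 and 93.4 CPM with LP-184 and 191, 191 and 196 CPM with DMSO, a fall of 1.05 on the log2 scale without overlap. Slc35d2, another carrier of this sugar nucleotide, fell by 1.77.

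Among the 23 ion and pH carriers tested, 12 rose and 7 fell. The anion exchanger Slc4a2 rose by 0.76, while the sodium bicarbonate cotransporter Slc4a7 fell by 1.25. The phosphate importer Slc20a2 had 66.2, 67.4 and 67.9 CPM with LP-184 and 115, 124 and 115 CPM with DMSO, a fall of 0.81, and its relative Slc20a1 rose by 0.15. The potassium-dependent sodium and calcium exchanger Slc24a3 had 2, 0 and 0 reads with LP-184 and 59, 49 and 56 reads with DMSO, a ratio of DMSO to LP-184 of 87.6 (exact 95% interval 23.9 to 729, counting error only). The sodium bicarbonate cotransporter Slc4a4 had 0, 0 and 2 reads with LP-184 and 42, 48 and 46 reads with DMSO, a ratio of 72.6 (19.7 to 606).

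The remaining classes are described together. Of 11 organic anion and cation carriers, 2 rose, led by the sialic acid carrier of lysosomes Slc17a5 (0.69), then Slc10a3 (0.49), and 4 fell, led by Slc22a29 (-2.64), Slc10a7 (-2.53) and Slc22a23 (-1.17). The fatty acid carrier Slc27a4 rose by 0.73 and Slc27a1 fell by 0.22, and of the choline carriers Slc44a2 rose by 0.23 and Slc44a1 fell by 0.81. The creatine carrier Slc6a8 rose by 0.69 and Slc66a2 by 0.97, whereas Slc49a4 and Slc66a3 fell by 0.94 and 0.89. Slc16a13 fell by 0.30. Slc7a6os, the neighbour of Slc7a6 on the opposite strand, had 123, 134 and 133 CPM with LP-184 and 42.0, 43.9 and 45.5 CPM with DMSO, a rise of 1.57 ± 0.04, and Slc4a1ap rose by 0.48.

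Fold change varied with the length of the gene. The median span was 14.9 kb among the 83 members that rose and 44.3 kb among the 56 that fell. All 11 tested members of 100 kb or more fell, by 0.47 to 4.57 on the log2 scale, beside 90.5% of all tested genes of that length. Members under 10 kb rose in 25 of 36 cases and fell in 6, and those of 30 to 100 kb rose in 15 of 67 and fell in 31. Over all genes tested, of any length, 38.3% rose and 40.0% fell. Whether these splits differ from those of other genes of the same length was not tested. A similar trend with span held over all genes, as the correlations that follow give. Over the 178 tested members, fold change and log10 span had a Spearman correlation of -0.53 and a Pearson correlation of -0.59, and over 11683 genes the values were -0.49 and -0.48; these are descriptions across genes, which are not independent replicates and share the same 6 libraries. Within amino acid, metal and mitochondrial carriers, the Spearman values were -0.54 (22 genes), -0.54 (24 genes) and -0.56 (39 genes). The part of gene length in any single result was not tested.

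**Figure D3:**
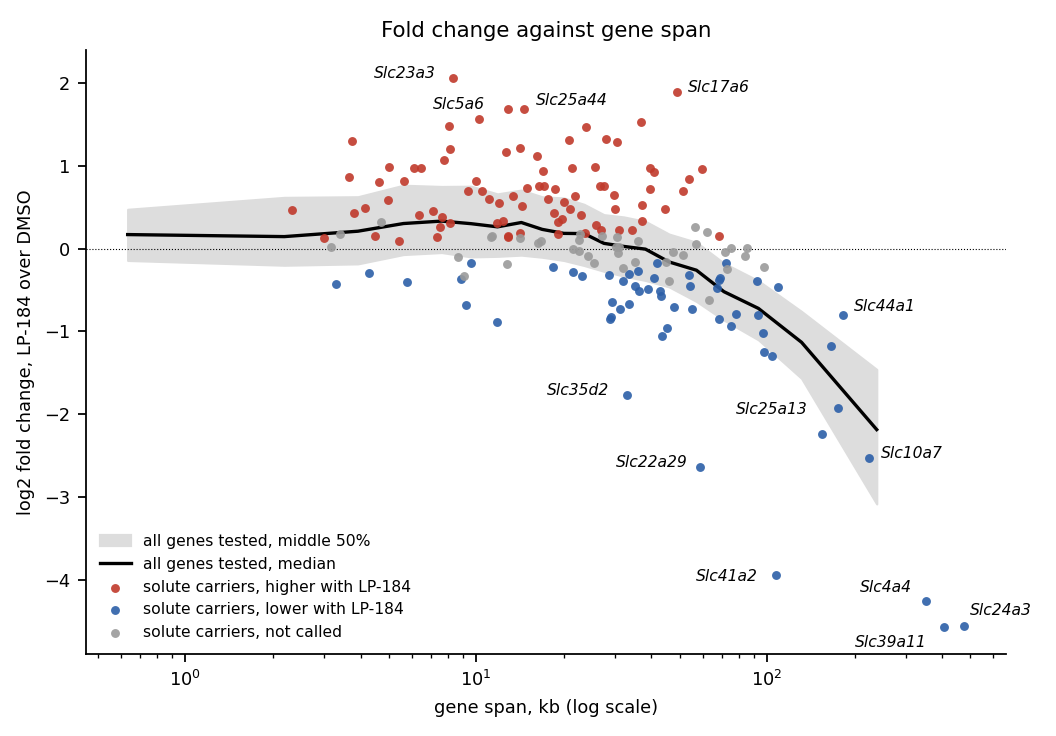
Log2 fold change (LP-184 over DMSO, y axis) of the 178 tested solute carriers against gene span in kb (x axis, log scale); the line and band are the median and the middle 50% of all genes tested in 20 groups of equal size by span. Members over 100 kb all lie below 0, and Slc41a2 and Slc22a29 lie far below the line at their span.

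With the trend of span removed from the LP-184 values, 15 members stayed higher and 8 lower by 2-fold or more. Slc41a2 kept a log2 fold change of -3.03, Slc39a11 of -1.99, and Slc35d2 of -1.79. Other falls were smaller without the trend, with Slc10a7 at -0.58, Slc4a7 at -0.44 and Slc25a26 at -0.42. On the side of the rises, Slc25a25 kept 1.55, Slc25a44 and Slc5a6 1.37 and Slc39a6 1.32. Of the 139 called members, 19 changed sign, 12 of them rises and 7 falls. Slc44a1, spanning 182 kb, stood at 0.83 in place of -0.81. The other called members given here whose sign changed were Slc7a1, Slc16a10, Slc20a1, Slc22a23, Slc23a2, Slc25a1, Slc25a3, Slc25a4, Slc25a10, Slc30a7, Slc39a1 and Slc48a1. Slc2a4, Slc10a3, Slc20a2 (-0.05), Slc38a2, Slc38a9 (-0.19), Slc40a1 and Slc50a1 kept their sign and were no longer called.

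Relatives within a family often moved in opposite directions. A family with at least 1 rise and 1 fall was found 26 times, and in 23 of the 26 the member with the largest fall spanned more DNA than the member with the largest rise. Besides Slc41a, Slc39a and Slc44a, examples are Slc37a, where Slc37a4 (6.12 kb) rose and Slc37a3 (42.9 kb) fell, and Slc20a, where Slc20a1 (12.9 kb) rose and Slc20a2 (92.8 kb) fell. The exceptions were Slc26a, Slc35d and Slc66a; in Slc66a, the fall was in Slc66a3 (11.8 kb) and the rise in Slc66a2 (39.4 kb). The differences in fold change between relatives were not tested.

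**Figure D4:**
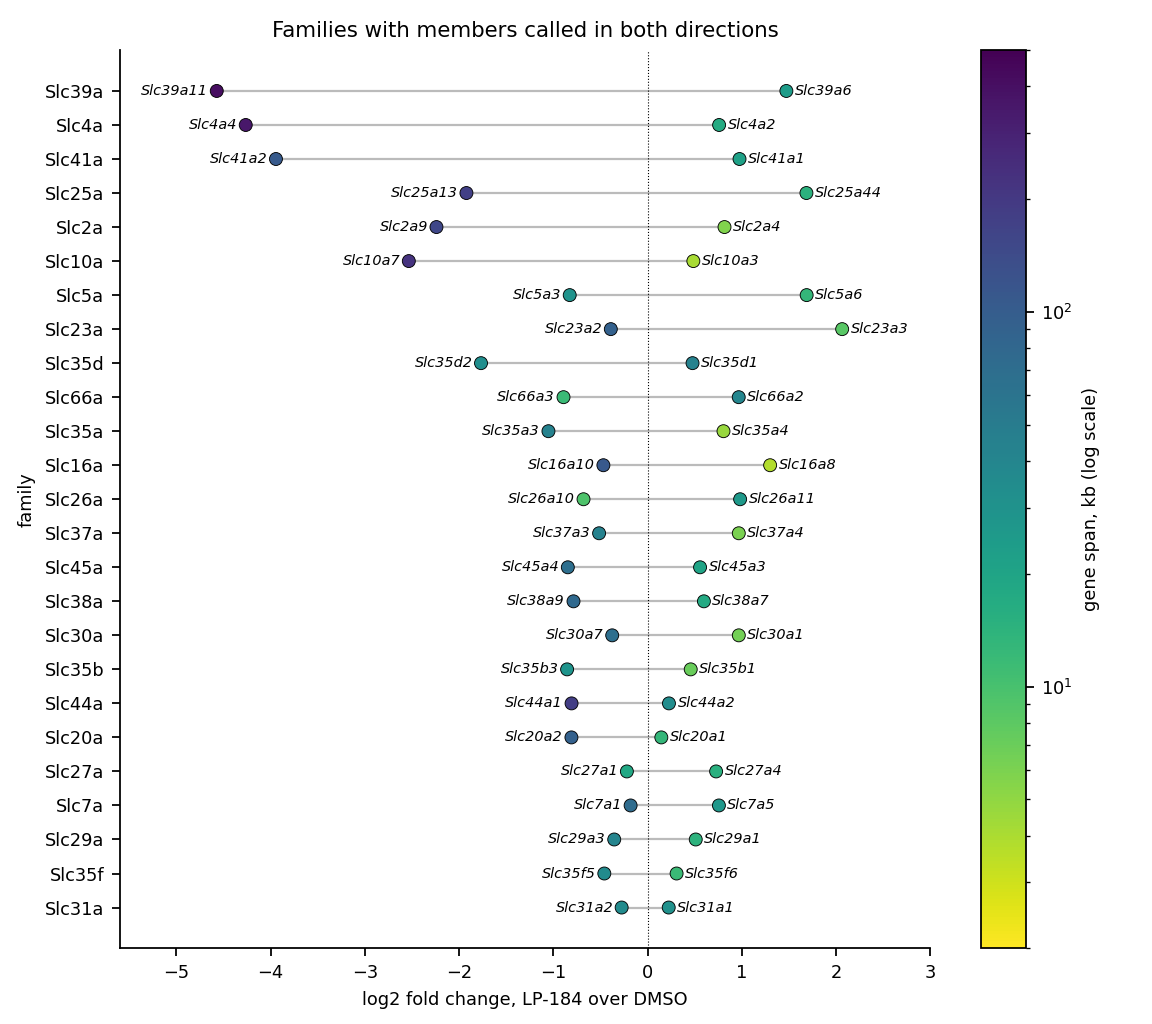
The largest rise and the largest fall among called members in 25 of the 26 families (y axis), as log2 fold change of LP-184 over DMSO (x axis). Point colour gives gene span in kb on a log scale, and a grey line joins the 2 genes of a family; the fall has the darker point, the longer gene, in 22 of the 25 drawn.

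The 11 members below the level for testing reached at most a mean of 1.30 CPM in either group. Slc9a9, a sodium and proton exchanger of endosomes spanning 561 kb, had 2, 0 and 0 reads with LP-184 and 14, 17 and 22 reads with DMSO. The vesicular glutamate carrier Slc17a8 had 13, 12 and 14 reads with LP-184 and 0, 0 and 2 with DMSO, and the vesicular nucleotide carrier Slc17a9 had 33, 38 and 12 with LP-184 and 4, 3 and 4 with DMSO. In these 3 the groups did not overlap in reads. The others included Slc7a7, Slc2a6, Slc37a1, Slc5a5, Slc25a35, Slc18a1 and Slc2a4rg-ps.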

How the data were processed

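Polyadenylated RNA of 4T1 cells was sequenced in 6 libraries. The authors deposited log2 CPM per gene and library, and columns named as control were taken as DMSO. In these values 0 reads has 1 value in every library, as with a prior count. The scaled library size recovered from them differed from the reads over the table's genes. It was 1.007 to 1.016 times those reads in the LP-184 libraries and 0.984 to 0.994 times in the DMSO libraries. Named in the submitters' processing notes are fastp, STAR 2.7, featureCounts, Subread 2.0, edgeR, Cell Ranger 7.0 and Seurat 5.1.0, with the builds mm10 and hg38 and no roles; mm10 was taken for these mouse cells. The sources used here do not give the strandedness, gene filter or annotation. With the prior removed, 100% of values were whole reads (tolerance 0.001 reads), which gave reads and CPM. A table of the authors' own comparison, with log2 fold changes, a p-value and an adjusted p per gene, is quoted only by name, and its test is not stated.

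LP-184 was compared with DMSO on the deposited log2 values with limma 3.58.1 in R 4.3.3 (two-sided, moderated with a trend of variance on mean), over the 11931 genes at log2 CPM 0 or above in 3 or more libraries, with Benjamini-Hochberg adjustment over all of them and a threshold of 0.05. Fold changes are LP-184 minus DMSO, and the prior understates those of low genes. CPM sums include every member. Exact 95% intervals of read ratios cover counting error only. The procedure was tested on simulated counts. Summaries used Python 3.11.15, pandas 2.3.3, numpy 2.4.6 and scipy 1.17.1.

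Spans and exon lengths, 1-based, come from GENCODE vM21 (GRCm38, the assembly of mm10): 12368 of 12656 genes matched (97.7%), 234 of them under another symbol, and all 189 members. For the length trend, a loess curve (parameter 0.3) was fitted to fold change over log10 span and subtracted from the LP-184 libraries. Promoters are from RefSeq (GRCm38.p6) and cover 141 members.

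Members were chosen by symbol, and the members, 18 gene lists, 12 classes and tests were chosen with earlier results of these data known. The naming rule takes the Atf4-target, lactate, iron and copper carriers and Slc2a1, Slc2a3, Slc30a1, Slc39a14, Slc25a3, Slc25a4 and Slc25a5. It adds, among called members without overlap at log2 CPM of 3 or more, the 4 largest rises and falls in each of the 4 compared classes and 2 in each other class, the most abundant member of the 4 classes, and 3 partners per partner list. It gave 85 names, of which Slc7a3, Slc16a3, Slc16a7, Slc11a1 and Slc2a3 were not analysed here. Other genes given with values were chosen after their values were seen. A few genes are counted but not reported by name here. Alternatives were median centring and quantile scaling; log2(CPM + 1) and log2(CPM + 0.1); testing every gene, or those at log2 CPM 2 or above; other variance models; dropping 1 library at a time; a block for replicate number; voom on the recovered reads; a threshold of 0.01; and removal of the length trend.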

Additional observations from a re-analysis of the deposited data

How the results depend on the processing

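The number of members called was 139 and stayed within 1.5 times that under every alternative run, at 125 to 146; leaving out 1 library gave 130 to 135, and voom on recovered reads gave 140 of the members and 9375 of all genes. The 4 classes also stayed within 1.5 times. Median centring moved the median of all genes from -0.01 to 0.08. The replicate number as a block gave 138 members, 9291 genes and changed no call among the genes named except that of Slc16a10; same-numbered libraries did not deviate together (correlations -0.018 to -0.006), so the numbers do not pair the libraries.

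With the length trend removed, members split into 71 higher and 61 lower, and 18 named genes changed sign: Slc7a1 (0.35), Slc48a1 (-0.13), Slc25a3 (-0.12), Slc25a4 (-0.17), Slc25a5 (-0.26), Slc44a1 (0.83), Slc30a7 (0.10), Slc23a2 (0.37), Slc22a23 (0.32), Nedd4l (0.38), Slc38a1 (0.47), Slc25a1 (-0.15), Slc25a10 (-0.24), Slc20a1 (-0.17), Slc16a10 (0.46), Slc30a9 (0.13), Slc39a1 (-0.27) and Mt1 (-0.082). The alternative subtracts the curve by construction, and no other alternative changed the sign of a called named gene. The metal partners Steap3, Atox1, Aco1, Atp7a, Ireb2, Fth1 and Mtf1 are not counted among the named genes here. Among genes not called, Slc38a1, Slc30a5 and Slc30a9 changed sign with median centring, and Slc39a10 without DMSO replicate 1 or 2. Calls of Slc16a10, Slc2a4, Slc31a2, Slc36a4, Slc39a1 and Slc40a1, all near the threshold, were lost when 1 or another library was left out; fitting without the variance trend ended those of Slc2a4, Slc36a4 and Slc39a1, and quantile scaling those of Slc39a1 (0.07), Slc39a3 (-0.14) and Slc52a2 (-0.15). Low reads limit the fold of Slc24a3, Slc4a4, Slc9a9, Slc17a6 and Slc23a3.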
